A study of Mus musculus with 2 samples.

Results

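The genes described here are 42 genes of mitosis and the spindle, chosen by name for their known roles, with earlier results of these data known, and followed through the epidermis of mouse pups labelled as vitamin D receptor knockout in keratinocytes (KO) and of littermate controls (CON). Probes were matched to the list by symbol or by Entrez or RefSeq identifier, so that old names such as Cdc2a for Cdk1, Stk6 for Aurka and Cdca1 for Nuf2 were included. Of the 42 genes, 38 were matched to 59 probes, among 17872 genes in all. No probe was matched to Aurkb, Cenpf, Mki67 and Racgap1, which were not analysed here. A gene counted as detected when the detection p-value of its brightest probe was under 0.01 in at least 1 pool, and 26 of the 38 met this, against 8865 of all 17872 genes.

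The KO pool held epidermal RNA from 3 C57BL6 pups at postnatal day 5 whose genotype was VDR fl/fl with Cre driven by the keratin 14 (K14) promoter, which is active in basal keratinocytes and their follicular relatives. The CON pool held epidermal RNA from 3 littermates of the same age with VDR fl/fl and no Cre. Epidermis was lifted from back skin with dispase, RNA was taken from each mouse and combined, and each pool was read on 1 Illumina bead array. Since each genotype was read as a single pool, the arrays carry no measure of the spread between mice. The differences below have no test, and the number of arrays limits their precision.

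Mitosis begins when cyclin B binds and activates the kinase Cdk1. Chromosomes then condense, attach through kinetochores to spindle microtubules, and are held by the spindle checkpoint until all are attached. The anaphase-promoting complex then destroys securin and cyclin B, the sister chromatids part, and a central spindle guides cleavage of the cell. Most of these genes are transcribed in a burst late in the cell cycle, under the DREAM, B-Myb and FoxM1 complexes, and in epidermis dividing cells lie mainly in the basal layer and in the hair follicle.

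The Vdr probes did not check the labels. The brightest of the Vdr probes had a raw intensity of 2442.1 in KO and 1913.0 in CON. The second read 1559.6 in KO and 1203.7 in CON, and the third read 189.0 in KO and 193.0 in CON. Both brighter probes were thus higher in KO, and the sources used here do not give which part of the gene was deleted or where the probes lie. The epidermal markers were present in both pools, with Krt14 at 33165.4 in KO and 30158.0 in CON, and Krt10 at 33073.8 in KO and 30955.8 in CON. The median raw intensity over all probes was 158.5 in KO and 153.6 in CON, so a raw ratio near 1.03 is the level of the arrays themselves. Changes are therefore given below as KO minus CON on a log2 scale after background correction and quantile normalization, on which the median over all detected genes was 0.00.

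The promoters below are those of the 3 members with the largest rise and of the 3 with the lowest change among detected members with a RefSeq promoter. They are shown because the promoters of mitotic genes commonly carry a cell cycle genes homology region (CHR, bound by the DREAM and B-Myb complexes) and CCAAT boxes (bound by NF-Y). Each runs 5′ to 3′ from 250 bases before to 50 bases after the RefSeq start site in GRCm38.p6. Capitals mark every TTTGAA or TTTAAA (CHR) and every CCAAT, on either strand.
Nusap1 (chr2:119618048-119618347, plus strand): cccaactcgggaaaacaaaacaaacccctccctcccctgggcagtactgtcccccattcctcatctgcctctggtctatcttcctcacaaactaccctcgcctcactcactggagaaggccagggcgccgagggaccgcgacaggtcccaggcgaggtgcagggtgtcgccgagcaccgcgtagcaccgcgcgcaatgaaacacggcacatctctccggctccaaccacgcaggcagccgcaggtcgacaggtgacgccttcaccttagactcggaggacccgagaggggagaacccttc
Ccnb1 (chr13:100786437-100786736, minus strand): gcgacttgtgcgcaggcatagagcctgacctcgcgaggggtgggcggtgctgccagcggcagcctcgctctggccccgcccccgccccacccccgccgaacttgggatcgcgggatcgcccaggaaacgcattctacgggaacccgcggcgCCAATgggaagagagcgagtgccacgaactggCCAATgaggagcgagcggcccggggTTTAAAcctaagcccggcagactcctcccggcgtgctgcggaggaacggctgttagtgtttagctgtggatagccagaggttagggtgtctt
Mad2l1 (chr6:66534971-66535270, plus strand): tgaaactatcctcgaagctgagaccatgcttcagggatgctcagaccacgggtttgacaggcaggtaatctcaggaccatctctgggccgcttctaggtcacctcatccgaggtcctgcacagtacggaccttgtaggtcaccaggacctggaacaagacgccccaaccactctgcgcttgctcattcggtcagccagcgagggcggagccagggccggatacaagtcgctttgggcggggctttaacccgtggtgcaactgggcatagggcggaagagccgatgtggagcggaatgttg
Spc25 (chr2:69206164-69206463, minus strand): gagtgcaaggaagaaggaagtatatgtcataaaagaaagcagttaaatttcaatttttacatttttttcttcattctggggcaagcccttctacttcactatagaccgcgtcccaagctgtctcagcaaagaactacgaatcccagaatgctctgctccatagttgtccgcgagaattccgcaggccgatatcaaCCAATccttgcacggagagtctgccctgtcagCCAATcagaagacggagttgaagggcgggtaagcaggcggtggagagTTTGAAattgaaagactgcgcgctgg
Cdca8 (chr4:124936868-124937167, minus strand): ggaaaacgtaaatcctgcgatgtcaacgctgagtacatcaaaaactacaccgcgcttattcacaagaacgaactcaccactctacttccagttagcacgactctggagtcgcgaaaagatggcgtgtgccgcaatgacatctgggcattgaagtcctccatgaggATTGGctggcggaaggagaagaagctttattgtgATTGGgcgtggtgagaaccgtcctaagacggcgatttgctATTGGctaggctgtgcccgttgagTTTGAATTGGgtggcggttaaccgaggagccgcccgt
Kif4 (chrX:100625815-100626114, plus strand): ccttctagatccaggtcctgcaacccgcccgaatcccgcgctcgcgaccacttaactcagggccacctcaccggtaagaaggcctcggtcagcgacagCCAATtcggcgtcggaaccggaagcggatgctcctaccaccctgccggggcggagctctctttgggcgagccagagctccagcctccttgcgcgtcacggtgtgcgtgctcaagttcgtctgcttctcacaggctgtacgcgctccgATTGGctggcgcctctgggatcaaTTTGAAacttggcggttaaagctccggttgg

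The Ccnb1 window held 1 TTTAAA, starting 42 bases before the start site, and CCAAT boxes starting 99 and 67 bases before it. The Spc25 window held TTTGAA 24 bases after the start site, with CCAAT boxes 55 and 23 bases before it. In Cdca8 the TTTGAA lay 13 bases after the start site and shared its last base with 1 of 4 CCAAT matches, all of them on the other strand. The Kif4 window held 1 TTTGAA and 2 CCAAT matches. No match to these letters lay in the windows of Nusap1 and Mad2l1.

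Promoter windows were given for 35 of the 42 genes, 37 windows in all. A CHR lay in 31 of these 37 windows (83.8%), against 27.6% of all 32851 promoters and 19.3% of the promoters of genes detected on these arrays. A CCAAT box lay in 29 (78.4%), against 37.4% of all promoters and 37.5% of those of detected genes. Both stood together in 27 windows (73.0%), against 10.7% of all promoters. A match of letters is a description of the sequence and not a site of binding.

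The mitosis and spindle genes were mostly slightly higher in the KO pool. Of 26 detected members, 24 had a log2 change above 0 (92.3%), where 50.2% of all detected genes did, and the median was 0.26, against 0.00 over all detected genes. Few of the changes were large. By the rule of at least 1.5-fold, 3 members (11.5%) were higher and 0 lower, where 3.10% of all detected genes were higher and 2.28% lower. The values of 19 members lay above 0.17, the upper quartile of all detected genes, which 25.0% of genes pass. In bulk RNA, more dividing cells and more of each transcript per dividing cell cannot be told apart.

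The genes that passed the rule were Nusap1, Ccnb1 and Mad2l1. Mad2l1 was just inside it at 1.51-fold, and the next members below it were Pttg1, undetected in CON, at a fitted 1.44-fold and Anln at 1.36-fold. Of the remaining members, 6 were between 1.3-fold and 1.5-fold higher, a range that held 5.66% of all detected genes, and 17 differed from CON by less than 1.3-fold in either direction.

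**Figure D1:**
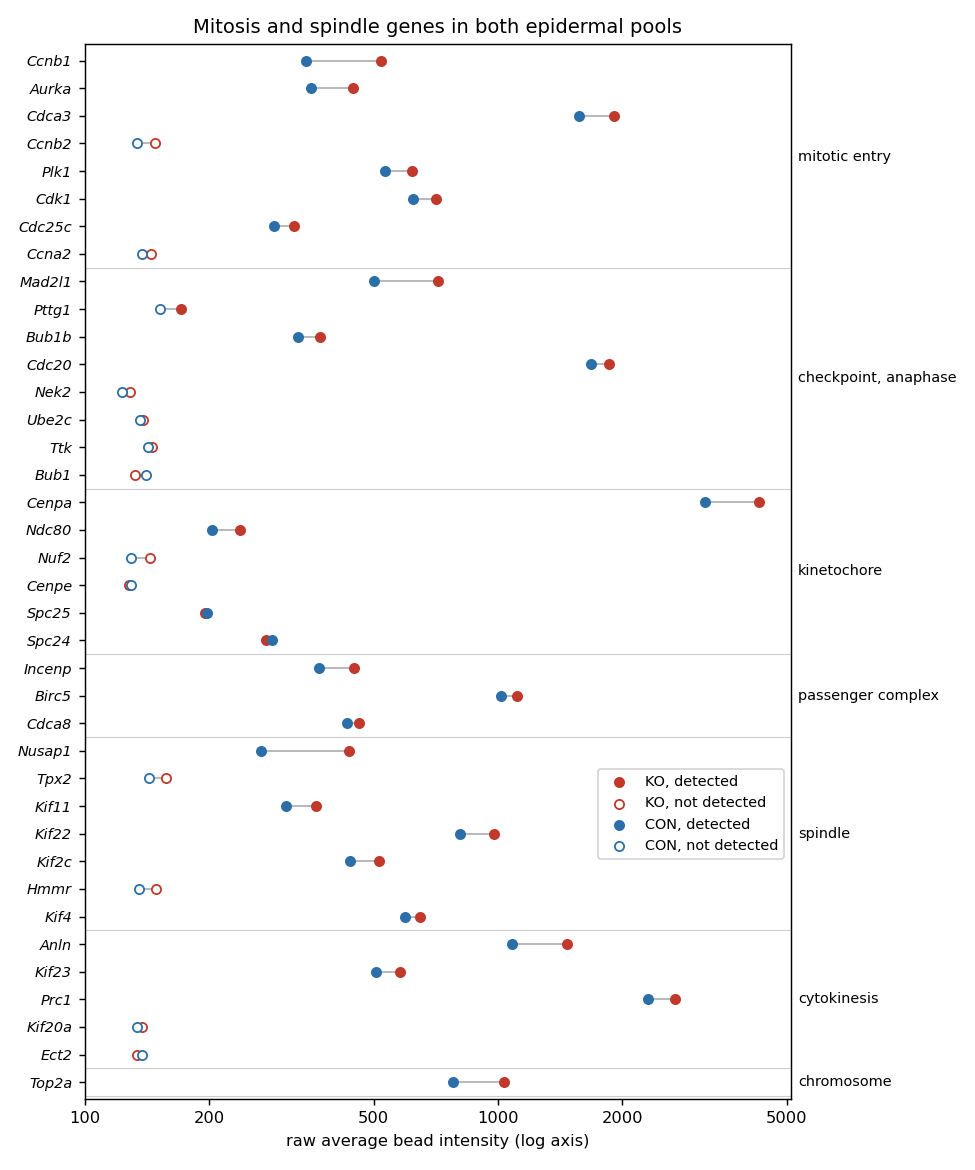
Raw average bead intensity (log axis) of the brightest probe of each of the 38 matched genes, in KO (red) and CON (blue), grouped by role. Filled points were detected and open points were not. Of the 26 detected genes, 24 lie further right in KO, and the 12 undetected genes lie between 122.7 and 156.9 in both pools. These raw values are not normalized, and the median over all probes was 158.5 in KO and 153.6 in CON.

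Among the regulators of mitotic entry, 6 of 8 genes were detected, and all 6 had positive changes with a median of 0.25. Ccnb1, the B-type cyclin that activates Cdk1, had a raw intensity of 520.0 in KO and 343.0 in CON, a log2 change of 0.78 or 1.72-fold. Its second probe read 335.0 in KO and 251.6 in CON, a log2 change of 0.62. Both Ccnb1 probes thus placed it well above the middle of the arrays. A related pseudogene, Ccnb1-ps, is annotated in RefSeq, and how much signal the probes share with it was not measured. Ranked by change, Ccnb1 stood at place 99 from the top of the 8865 detected genes.

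The kinase gene Aurka, which acts at the centrosome, read 446.7 in KO and 353.2 in CON (log2 change 0.42). Cdca3, whose product promotes entry by helping to remove the inhibitory kinase Wee1, read 1912.2 in KO and 1568.1 in CON (0.27), but its second probe changed by only 0.05. The polo-like kinase gene Plk1 read 620.7 in KO and 532.9 in CON (0.22). These values were higher in KO and under the 1.5-fold rule. Cdk1 itself, the kinase at the centre of entry, read 707.5 in KO and 624.2 in CON, a log2 change of 0.17. The other Cdk1 probes were detected in neither pool. Cdc25c, the phosphatase that activates Cdk1, had detected probes at 321.0 and 303.7 in KO and 286.9 and 271.3 in CON, with log2 changes of 0.16 and 0.18. The cyclin B1 gene therefore showed the larger change and its kinase partner a small one. The cyclin genes Ccna2 and Ccnb2 were not detected in either pool.

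Of 8 spindle checkpoint and anaphase genes, 4 were detected, all with positive changes. Their median was 0.36 with Pttg1, which was not detected in CON, and 0.19 over the 3 genes detected in both pools. Mad2l1 encodes Mad2, which holds back anaphase by binding Cdc20. Its raw intensity was 714.5 in KO and 500.0 in CON, a log2 change of 0.60. Its target Cdc20, the activator of the anaphase-promoting complex, read 1851.7 in KO and 1676.4 in CON, a log2 change of 0.11 by the brightest of 4 probes. The other Cdc20 probes gave 0.12, 0.05 and -0.05. The inhibitor thus differed between the pools and its target hardly did. Bub1b, another checkpoint gene, read 370.1 in KO and 327.6 in CON (0.19).

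Pttg1, the gene of securin, which restrains the enzyme that cuts cohesin, was detected in KO at 171.3 and not in CON at 151.7. Its fitted log2 change was 0.52, but measured against the lowest detected signal of the CON array the difference was at least 1.07-fold. It entered the detected set through the pool in which it was higher. Bub1, Ttk and Nek2, which encode kinases, and Ube2c, the ubiquitin-conjugating enzyme of the anaphase-promoting complex, were detected in neither pool.

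By their brightest probes alone, the kinetochore genes were divided. Cenpa, the histone H3 variant that marks centromeres, read 4282.6 in KO and 3170.8 in CON, a log2 change of 0.42. Ndc80, a subunit of the complex that grips microtubules, read 238.0 in KO and 203.0 in CON (0.40), while its second probe was detected in neither pool. The partner subunits Spc24 and Spc25 were the members with negative values by their brightest probes. Spc24 read 274.3 in KO and 284.4 in CON (-0.20), and Spc25 read 195.2 in KO and 197.3 in CON (-0.18).

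The second probes of both genes went the other way. For Spc24 that probe read 272.1 in KO and 231.3 in CON, a log2 change of 0.35. For Spc25 it read 186.7 in KO and 164.9 in CON, a log2 change of 0.45. No direction can thus be given for Spc24 or Spc25 from these arrays. The fourth subunit Nuf2 and the kinetochore motor gene Cenpe were detected in neither pool.

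The chromosomal passenger complex corrects faulty attachments and steers cytokinesis, and its 3 detected genes had a median log2 change of 0.10, with Birc5 and Cdca8 among the less changed members and Incenp above the members' median. Incenp, the scaffold of the complex, read 449.4 in KO and 369.6 in CON (log2 change 0.34). Birc5, which encodes survivin, read 1111.8 in KO and 1014.2 in CON (0.10), and its other probes gave 0.14 and 0.22. Cdca8, the gene of borealin, read 459.6 in KO and 430.2 in CON (0.07). All 5 probes of these genes were higher in KO by less than 1.5-fold.

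**Figure D2:**
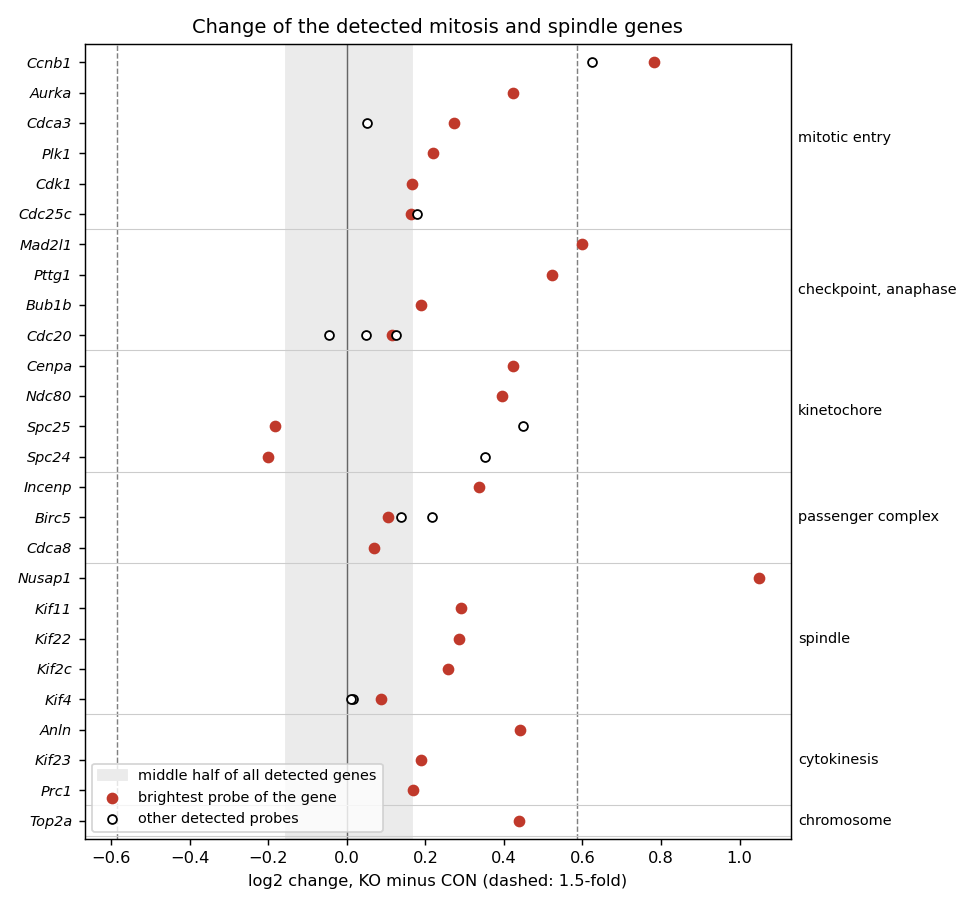
Log2 change, KO minus CON, of the 26 detected genes by role. Red points are the brightest probe of each gene, open points its other detected probes, the grey band spans the lower to the upper quartile of all detected genes and dashed lines mark 1.5-fold. Nusap1, Ccnb1 and Mad2l1 lie beyond the line, and the paired probes of Spc24 and Spc25 fall on opposite sides of 0.

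Nusap1, which encodes a protein that binds and stabilises spindle microtubules near chromosomes, had the largest change of all members. Its raw intensity was 436.2 in KO and 266.2 in CON, a log2 change of 1.05 or 2.07-fold, and place 34 from the top of the 8865 detected genes. The value rests on 1 probe, since the other Nusap1 probes were detected in neither pool, at 135.0 and 135.4 in KO and 145.0 and 136.3 in CON.

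The kinesin genes of the spindle had smaller changes in the same direction. Kif11, the motor that pushes the poles apart, read 363.2 in KO and 306.5 in CON (log2 change 0.29). Kif22, a motor that binds chromosome arms, read 978.5 in KO and 809.6 in CON (0.29). Kif2c, which takes microtubules apart at the centromere, read 515.7 in KO and 437.9 in CON (0.26). These 3 motors stood between 1.20-fold and 1.22-fold higher. Kif4, a chromosome motor that also acts at the central spindle, read 647.7 in KO and 596.2 in CON (0.09), with 0.02 and 0.01 by its other probes, so that it hardly differed. RefSeq also lists a Kif4 pseudogene, whose share of the signal was not measured. Tpx2, the activator of Aurora A, and Hmmr, a microtubule-binding protein gene, were detected in neither pool.

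Of the cytokinesis genes, Anln, which encodes anillin, the scaffold of the contractile ring, read 1465.5 in KO and 1081.2 in CON (log2 change 0.44). The other Anln probes were detected in neither pool. Prc1, which bundles the microtubules of the central spindle, read 2677.2 in KO and 2308.4 in CON (0.17). The centralspindlin motor gene Kif23 read 577.9 in KO and 506.6 in CON (0.19). All were higher in KO, and Anln came closest to the 1.5-fold rule. Kif20a and Ect2 were detected in neither pool. Top2a, the topoisomerase that untangles sister chromatids, read 1034.7 in KO and 778.2 in CON (0.44), a difference of 1.36-fold.

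Several probes of a gene mostly gave the same direction. Of 38 detected probes of the list, 35 were higher in KO and 3 lower. Of 8 members with at least 2 detected probes, 5 had all of them on the same side of 0, and the exceptions were Spc24, Spc25 and Cdc20. With the detected probes of each gene averaged, all 26 members had positive changes, against 49.7% of all detected genes, and the median was 0.24.

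Signal did not separate the members from other genes. The median of their mean log2 signal was 8.58, against 8.57 over all detected genes. In genes whose log2 signal averaged 8 or more over both pools, where changes of single genes scatter less, all 18 members were higher in KO, against 50.2% of 5106 genes. By the 1.5-fold rule 2 of these 18 were higher, Ccnb1 and Mad2l1, against 1.29% of the 5106.

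**Figure D3:**
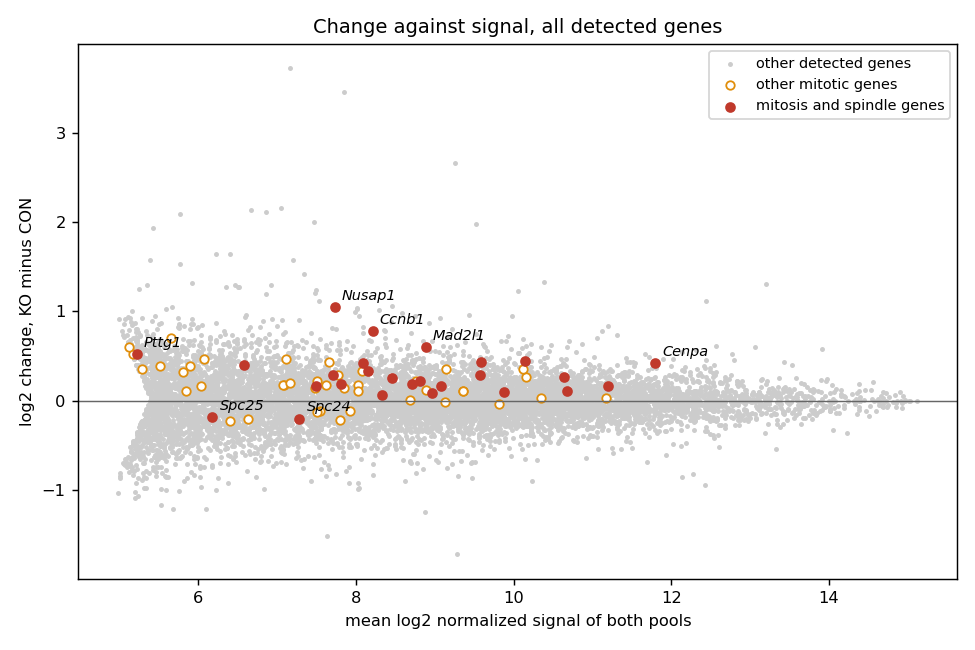
Log2 change, KO minus CON, against the mean log2 normalized signal of both pools for the 8865 detected genes (grey), with the 26 mitosis and spindle genes in red and 41 other mitotic genes as open circles. The scatter of all genes narrows to the right, and the red points lie mostly above 0 at each signal.

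The size of the changes depended on the background correction. Their direction could not, because quantile normalization sets values by the order of probes within an array, which the correction kept. With the normalized intensities of the authors, which keep the background, the median of the 26 members was 0.17 and 24 were higher in KO. Those values had nearly the same distribution on both arrays, so that count is not separate support. Only Nusap1 then passed the 1.5-fold rule, at 1.53-fold, where 0.541% of all detected genes passed. Ccnb1 was 1.42-fold and Mad2l1 1.38-fold higher on that scale. In the authors' values Pttg1 had a log2 change of 0.17, and Cenpa, with a raw intensity far above the background, had 0.38. With quantile normalization and no background correction, Nusap1 was again the member past the rule, against 0.564% of all detected genes, and in the main values it alone reached 2-fold, against 0.451%. Nusap1 and Ccnb1 passed with an offset of 50 in place of 16, against 1.15% of all detected genes, and with scaling to the 75th percentile, against 2.91%. Under that scaling 24 members had changes above 0, against 48.4% of all detected genes, and among genes detected in both pools 23 of 25 members did, against 50.4%.

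**Figure D4:**
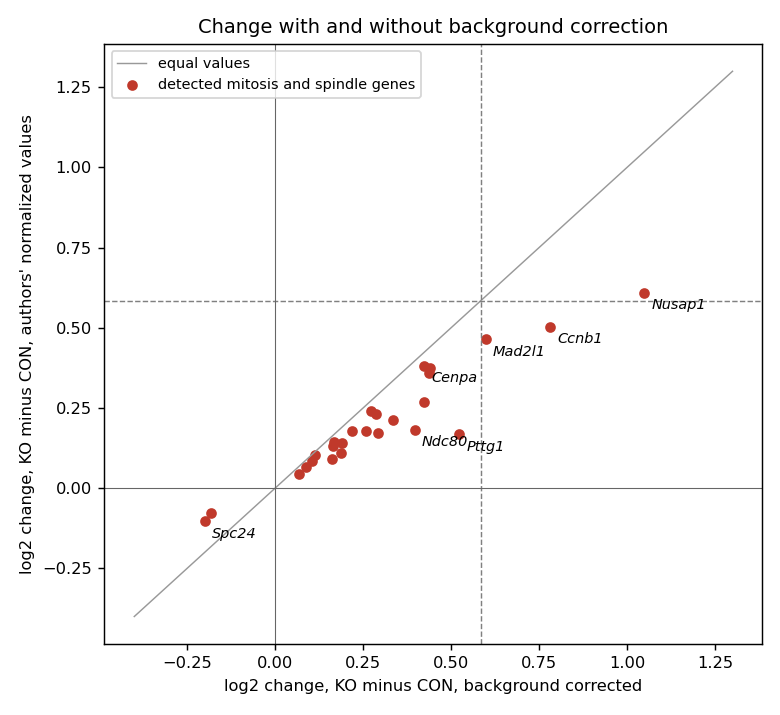
Log2 change of the 26 detected genes, KO minus CON, in background-corrected values (horizontal) and in the normalized values of the authors (vertical). Dashed lines mark 1.5-fold, and the diagonal marks equal values. The points keep their sign and lie between the diagonal and 0, most so for dim genes such as Pttg1 and Ndc80.

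Other mitotic genes outside the list went the same way by smaller amounts. Of 73 such genes 61 were matched and 41 detected, 33 of them with positive and 8 with negative changes, and the median was 0.18. The rule of 1.5-fold was passed by 2 as higher and 0 as lower. Of these, Ckap2l, a spindle protein gene, was undetected in CON, with a bound of at least 1.03-fold. Ncapg2, a condensin II subunit gene, read 207.4 in KO and 178.5 in CON (log2 change 0.47). Cenph, another kinetochore gene, was undetected in CON with a bound of 1.03-fold. In all, 5 of the 41 were detected in KO alone and 0 in CON alone, against 3.15% and 3.52% of all detected genes.

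The subunits of the anaphase-promoting complex did not follow. Of 13 detected genes, 6 were higher and 7 lower in KO, with a median of -0.03, and 0 passed the 1.5-fold rule in either direction. Cdc16, a scaffold subunit, read 377.2 in KO and 284.1 in CON (log2 change 0.57), and Cdc23 read 639.8 in KO and 545.0 in CON (0.22). Anapc15 read 224.9 in KO and 241.7 in CON (-0.34). Anapc11, the catalytic RING subunit, was undetected in KO at 168.8, against 175.1 in CON. Its bound was at least 1.26-fold lower in the main values, and its log2 change was -0.11 in the authors' values.

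The transcription regulators of mitotic genes differed less than the genes themselves. Of 15 detected, 11 had positive and 4 negative changes, with a median of 0.09, and 0 passed the rule. Mybl2, the gene of B-Myb, read 438.5 in KO and 356.3 in CON (log2 change 0.36). E2f5, a repressor that works with pocket proteins, read 270.9 in KO and 225.4 in CON (0.42), and E2f3 read 187.1 in KO and 188.6 in CON (-0.18). Lin37, a DREAM subunit gene, was undetected in CON at 154.3, against 173.6 in KO, with a bound of 1.12-fold. Foxm1, named after its value was seen, read 338.5 in KO and 308.1 in CON (0.12).

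Genes of earlier steps of the cycle also leaned higher in KO, with smaller medians that lay below the upper quartile of all detected genes (0.17). Of 25 detected DNA replication genes, 18 were higher (72.0%, against 50.2% of all detected genes) and 7 lower, with a median of 0.14. Of these genes, 48.0% lay above the upper quartile, which 25.0% of all detected genes pass. Tyms, for thymidylate synthase, read 1302.9 in KO and 945.9 in CON (log2 change 0.48), and Uhrf1, which guards DNA methylation at replication, 943.4 in KO and 722.7 in CON (0.41). Cdc6, which loads the replicative helicase, was undetected in CON, with a bound of at least 1.71-fold in the main values. In the authors' values Cdc6 was 1.22-fold higher. Gins3 was undetected in KO with a bound of 1.12-fold lower. Of 12 detected G1 cyclin, kinase and inhibitor genes, 8 were higher (66.7%) and 4 lower, with a median of 0.06. Since that list joins cyclins with inhibitors, its count gives no direction for the cycle. Ccne1 was undetected in CON at 156.5, against 200.2 in KO, with a bound of at least 1.74-fold in the main values. In the authors' values Ccne1 was 1.29-fold higher. The D-type cyclin gene Ccnd2 read 3500.1 in KO and 2530.9 in CON (0.44), the inhibitor gene Cdkn2b 673.6 in KO and 528.6 in CON (0.37), and Cdk2 1914.9 in KO and 1548.6 in CON (0.29).

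**Figure D5:**
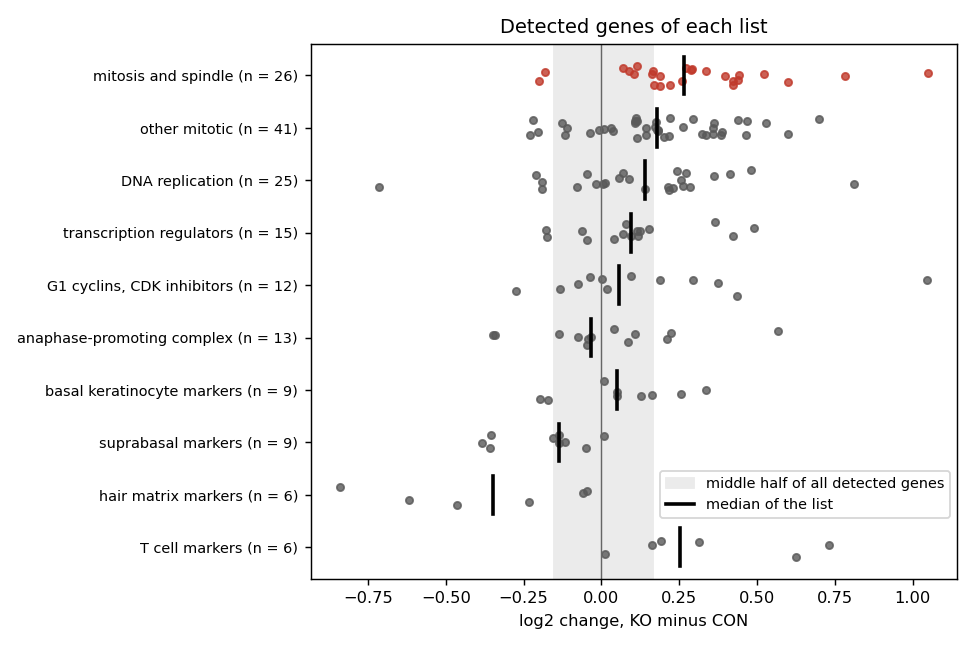
Log2 change, KO minus CON, of the detected genes of each list, with the list median as a black bar and the lower to upper quartile of all detected genes as a grey band. The median is 0.26 for mitosis and spindle genes, 0.18 for other mitotic genes, -0.03 for the anaphase-promoting complex, 0.05 for basal keratinocyte markers and -0.35 for hair matrix markers.

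Markers of cell types that hold dividing cells, or that could contribute RNA, moved in different directions beside these genes. The 9 detected of 10 basal keratinocyte markers summed to a raw intensity of 98296.6 in KO and 93917.0 in CON. Of these, 7 were higher, among them Dst, undetected in CON, and 2 lower, with a median log2 change of 0.05. Itga6 was detected in neither pool. The 9 detected of 10 suprabasal markers summed to 133800.3 in KO and 140648.9 in CON, with 8 lower and a median of -0.14. Both medians lay between the lower quartile (-0.15) and the upper quartile (0.17) of all detected genes. All 6 detected of 9 hair matrix markers were lower in KO, with a median of -0.35 and sums of 3971.2 in KO and 4676.7 in CON. Krt35 and Wnt10b passed the 1.5-fold rule as lower, with log2 changes of -0.84 and -0.62, against 2.28% of all detected genes. In the authors' values these changes were -0.67 and -0.27, and only Krt35 passed. All 6 detected of 8 T cell markers were higher in KO, with a median of 0.25 and sums of 5934.2 in KO and 5202.9 in CON. Cd2 passed the 1.5-fold rule at 1.66-fold (1.22-fold in the authors' values). Cd7, undetected in CON, had a bound of at least 1.24-fold (1.15-fold in the authors' values). All 4 detected of 8 skeletal muscle markers were higher in KO at low signal, with sums of 925.2 in KO and 705.3 in CON. Of these, Myl1 passed the 1.5-fold rule at 3.12-fold, and Tnni2 had a log2 change of 0.32. Myh8 and Acta1, undetected in CON, entered the detected set through KO and had bounds of at least 1.53-fold and 1.04-fold. In the authors' values they were 1.35-fold and 1.15-fold higher. The list median of 0.96 (0.32 in the authors' values) rests on the fitted values of Myh8 and Acta1. Detected Langerhans cell and melanocyte markers had medians of 0.05 and -0.20. The medians of fibroblast (-0.16) and erythroid markers (-0.10) join genes that moved apart. Of 3 detected fibroblast markers, 2 were lower in KO, among them Col1a1 by 1.78-fold, and Fbln1 was 1.33-fold higher. Of 2 detected erythroid markers, Hba-a1 was 1.61-fold lower and Slc4a1 1.41-fold higher. Col1a1 and Hba-a1 thus passed the 1.5-fold rule as lower, but neither did on the authors' scale. Endothelial and mast cell markers were detected in neither pool. The part of any of these cells in the difference of the mitotic genes was not tested.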

How the data were processed

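Per the file headers, the authors deposited an average bead intensity (linear, not normalized) and a detection p-value for each of 25697 probes in both pools. Bead standard errors were not used here. A further deposited table held normalized intensities, whose sorted values lay within 0.3 of each other on both arrays. The submitters' processing notes name GenomeStudio 2011.1, and the normalization method was not given in the sources used here.

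Non-normalized intensities were passed through neqc in limma 3.58.1 (R 4.3.3), which estimates the background through the detection p-values, corrects for it with an offset of 16, quantile-normalizes and takes log2. Genes were named through a RefSeq table of GRCm38.p6, and each was represented by its brightest probe. Changes were called by size at 1.5-fold, with no test. A gene undetected in 1 pool is given a bound, set against that array's lowest detected signal or the gene's own signal if higher. The bound was taken on the main values and holds on that scale only. The members and lists were chosen with earlier results of these data known. Named were every member and, per other list, all genes past 1.5-fold or the largest changes up to 4, except 1 gene that is not reported here. The steps were tested on simulated data. Alternatives changed the background correction, normalization, probe, detection rule and fold. Tables were handled in Python 3.11.15 with pandas 2.3.3.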

Additional observations from a re-analysis of the deposited data

How the results depend on the processing

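In the 26 detected mitosis and spindle genes, 24 changes were above 0 in KO under each alternative background correction and scaling, with all 26 when detected probes were averaged and 23 of 25 among genes detected in both pools. Under quantile normalization a change of background correction keeps each direction, so only the scaling, the probe and the detection rule could alter that count. With no detection filter, 31 of 38 members were above 0 (81.6%) and 7 below, against 50.2% of all 17872 genes above 0. The members' median was then 0.19. The count past 1.5-fold, 3 in the main values, was 1 in the authors' normalized values, 1 without background correction and 1 at 2-fold. In all 3 settings that gene was Nusap1. The median, 0.26 in the main values, was 0.17 in the authors' values and 0.17 without background correction. With an offset of 50 and with 75th percentile scaling the count past 1.5-fold was 2. Over all detected genes, 275 higher and 202 lower calls (57.7% higher) became 48 and 15 (76.2%) in the authors' values and 50 and 23 (68.5%) without background correction. Signs turned for Spc24 (0.08) and Spc25 (0.13) when detected probes were averaged. Signal close to background limits the values of dim genes, and the cause of the differences between settings was not tested beyond that. No paired analysis was possible because each genotype had 1 pool. Pooling hides the spread between mice.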

Other observations

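Of 23 detected members with a RefSeq promoter, 3 had neither a CHR nor a CCAAT box in the window from 250 bases before to 50 after the start site. These were Nusap1, Mad2l1 and Pttg1, which held places 1, 3 and 4 when detected members were ranked by log2 change, with 1.05, 0.60 and 0.52. The place of Pttg1 comes from a fitted value against an undetected CON signal, and in the authors' values it was 15, while Nusap1 and Mad2l1 stayed at 1 and 3. Ccnb1, at place 2, held 1 TTTAAA and 2 CCAAT boxes. The other 20 had a median log2 change of 0.24, from -0.18 to 0.78. The pattern was noticed after the values were seen, it rests on 3 genes, 1 of them undetected in CON, and was given no test. Letters absent from this window say nothing of elements outside it.

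The gene of the cell cycle inhibitor p21, Cdkn1a, went against the direction of the mitotic genes, with a raw intensity of 7018.5 in KO and 8102.6 in CON, a log2 change of -0.27. It was chosen after its value was seen and did not pass the 1.5-fold rule.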
